A study of Rattus norvegicus with 8 samples.

Results

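RNA-seq of rat (Rattus norvegicus) nucleus pulposus cells, which form the soft core of the intervertebral disc, was used to describe the solute carriers. The cells had all undergone knockdown of SOD1, a copper- and zinc-containing enzyme that removes superoxide from the cytosol. SOD1 was then supplied again by transfection, either as SOD1-K123R, a form with arginine in place of a lysine (4 libraries), or with its wild-type sequence, SOD1-WT (4 libraries). All 8 libraries came from cells kept in 10 mM lactate for 7 days, so lactate and the knockdown are shared by both groups, and the comparison asks how expression differs with the substitution while lactate is present. The table heads the SOD1-K123R columns L and the SOD1-WT columns Ctrl, letters that the labels do not explain, and a part of lactate itself in the differences cannot be told apart if those letters mark it. Neither the level of Sod1 nor a group without lactate was analysed here. The labels do not say whether libraries of a group came from separate cultures, so p-values measure the spread between these libraries, which may be technical.

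The genes are the rows of the deposited table whose symbol is Slc followed by a digit, less Slc2a1, Slc16a1, Slc16a3, Slc16a7, Slc31a2 and Slc39a8. This gave 67 of 4226 rows, from 35 families, and the deposited description calls each of the 67 a solute carrier. Solute carriers are membrane proteins that move ions, nutrients, metabolites, vitamins and metals across the plasma membrane and the membranes of organelles. Facilitative members let a solute run down its gradient, while symporters and antiporters couple it to sodium, protons or a counter-solute. Nucleus pulposus cells live without blood vessels, in an acidic and hyperosmotic matrix with little glucose, and depend on carriers for fuel, pH control and osmolytes. Families are numbered by relatedness, and the family number was used here to sort the genes into 8 substrate classes.

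Abundance was deposited as TPM, a measure scaled for transcript length and library size, so that levels of different genes can be set side by side. Column sums of 187515 to 243393 TPM show that the rows are only some of the genes of a library, and how they were chosen is not stated. The 2890 genes whose 8 libraries averaged 1 TPM or more were tested on the log2(TPM + 1) scale with limma. The threshold was an adjusted p (Benjamini-Hochberg, over these 2890 genes) of 0.05. All fold changes on a log2 scale below are SOD1-K123R minus SOD1-WT on that scale, where the added 1 makes differences of scarce transcripts look smaller, and all adjusted p are from this fit. In bulk RNA, fewer cells of a type and less RNA per cell cannot be told apart. Of 19 listed symbols of nucleus pulposus markers 7 were in the table and 6 were tested, 3 higher and 3 lower in SOD1-K123R. The list holds Car3 and Car12 under their other symbols, Ca3 and Ca12, as well. The higher ones were Sox9, at 3.18 ± 0.500 TPM in SOD1-K123R and 0.4 ± 0.101 TPM in SOD1-WT (mean ± SD, n = 4 each, as for every such pair below), Cd24 and Car12. The lower ones were Acan, the gene of aggrecan, at 0.645 ± 0.0998 TPM in SOD1-K123R and 1.54 ± 0.419 TPM in SOD1-WT, Cdh2, at 2.96 ± 0.451 TPM in SOD1-K123R and 9.43 ± 0.432 TPM in SOD1-WT, and Car3. Col2a1, below the filter, was at 0.065 ± 0.03 TPM in SOD1-K123R and listed at 0 in SOD1-WT. Markers of tendon and outer disc (2 of 5 listed, Scx and Thbs4) summed to 17.03 to 21.7 TPM in SOD1-K123R and 34.6 to 55.2 TPM in SOD1-WT. Among tested markers of other cell types, Mcam (pericyte), Runx2 (bone), Cd68 (leukocyte) and Fabp4 (adipocyte) were higher in SOD1-K123R. Ibsp (bone) and Ncam1 (glia and muscle) were lower. The part of all these markers in the results below was not tested.

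On the log2(TPM + 1) scale the thiamine transporter Slc19a2, the creatine transporter Slc6a8 and Slc35e4 rose most in SOD1-K123R cells (log2 fold changes 2.66, 2.12 and 1.97). The calcium exchanger Slc24a3 and the mitochondrial aspartate-glutamate carrier Slc25a13 fell most (-2.45 and -1.82). As ratios of mean TPM the order differed, since Slc37a2, at 4.99 times its SOD1-WT mean, came after Slc19a2 (7.79) and before Slc6a8 (4.54), and the SOD1-WT mean of Slc46a1 was 4.19 times that in SOD1-K123R, beside 9.82 for Slc24a3 and 4.11 for Slc25a13. Of the 67 carriers 47 could be tested, and 42 of these differed, 19 higher and 23 lower in SOD1-K123R. The table as a whole set the background: 95.7% of the genes tested passed, 44.6% as higher and 51.1% as lower. A passing carrier is thus what most rows of this table are, and the class counts below share this background. If rows were kept because they differ between these groups, passing was largely fixed in advance. The adjusted p would then say little of a carrier, and how rows were kept could not be checked. Changes of at least 2-fold on the log2 scale numbered 11 upward and 15 downward among the 47 carriers, beside 26% and 35.8% of all genes tested. In 41 of the 47 the libraries of one group all lay above those of the other, beside 91.4% of all genes tested. The median log2 fold change was 0.14 over the 47 carriers and -0.49 over all genes tested. The carriers' median is no stable value, because it lies at the edge of a gap between Slc4a4 at -0.51 and Slc25a38 at 0.14. It was -0.59 without SOD1-K123R replicate 1 (all genes -0.55), -0.20 without replicate 2 (-0.57), -0.46 without replicate 3 (-0.47) and -0.18 without replicate 4 of that group (-0.51). It was -0.16 with a common column sum (-0.71), -0.18 after quantile normalization (-0.26) and 0.50 after median-of-ratios scaling (-0.14). Median-of-ratios scaling moved the median of all genes by 0.35, quantile normalization by 0.23 and a common column sum by -0.22. Relative to the median of all genes, 24 carriers lay above and 23 below. The size of the change moved by over 1.5 times for 15, 4 and 6 of the 42 passing carriers under these 3 scalings, with no change of sign among the 42.

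**Figure D1:**
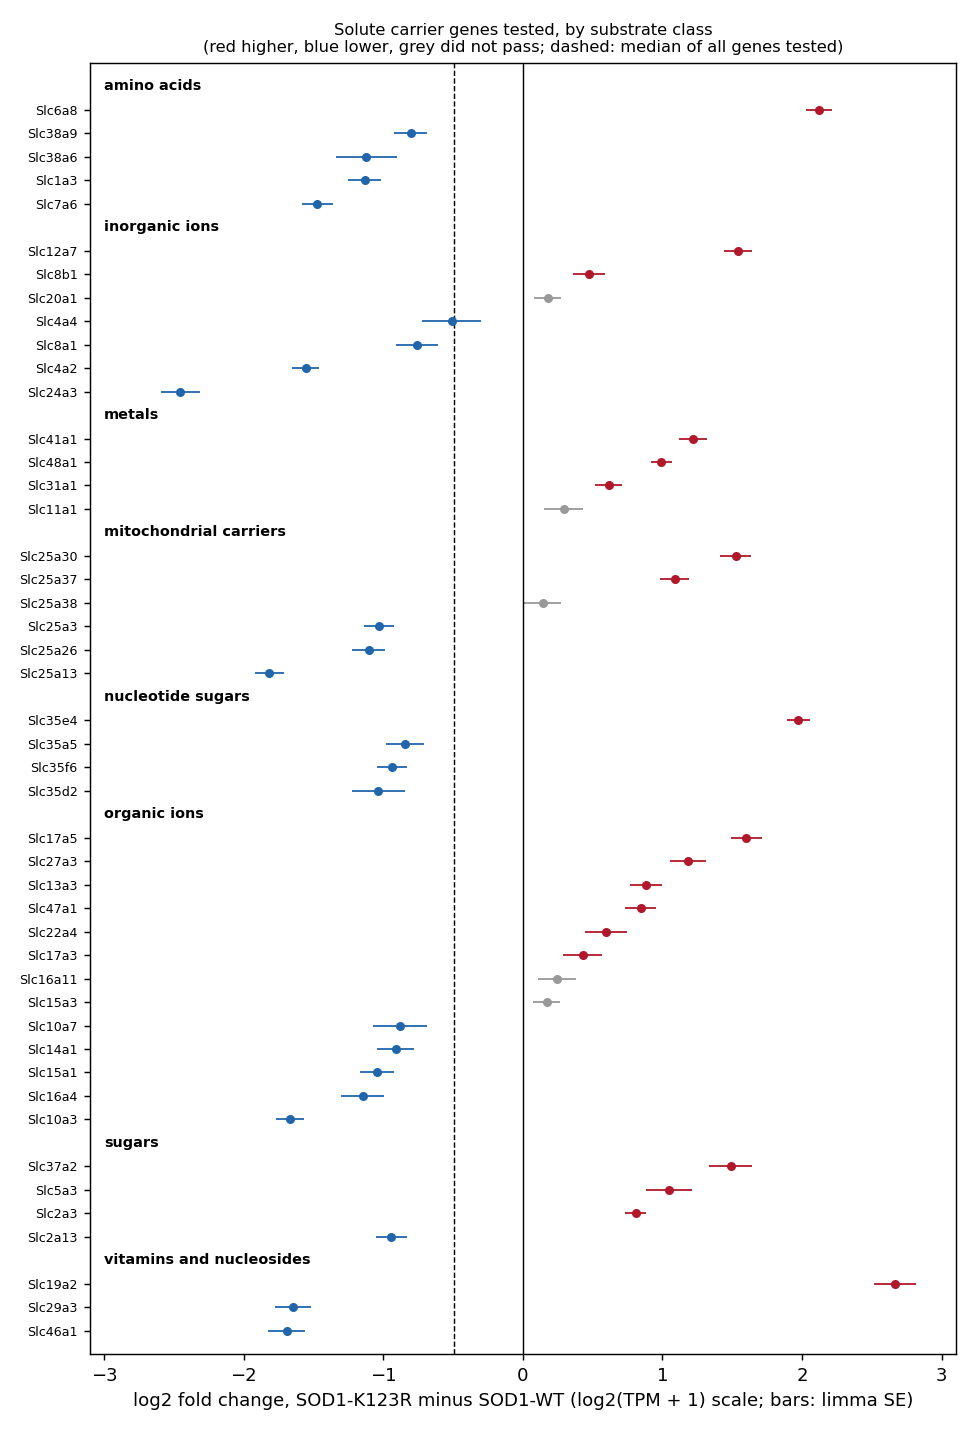
Log2 fold changes (horizontal axis, SOD1-K123R minus SOD1-WT on the log2(TPM + 1) scale, bars are limma standard errors) of 46 of the carriers tested, in 8 substrate classes. Red genes passed as higher (19), blue as lower (22) and grey did not pass (5), and the dashed line is the median of all genes tested, -0.49.

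**Figure D2:**
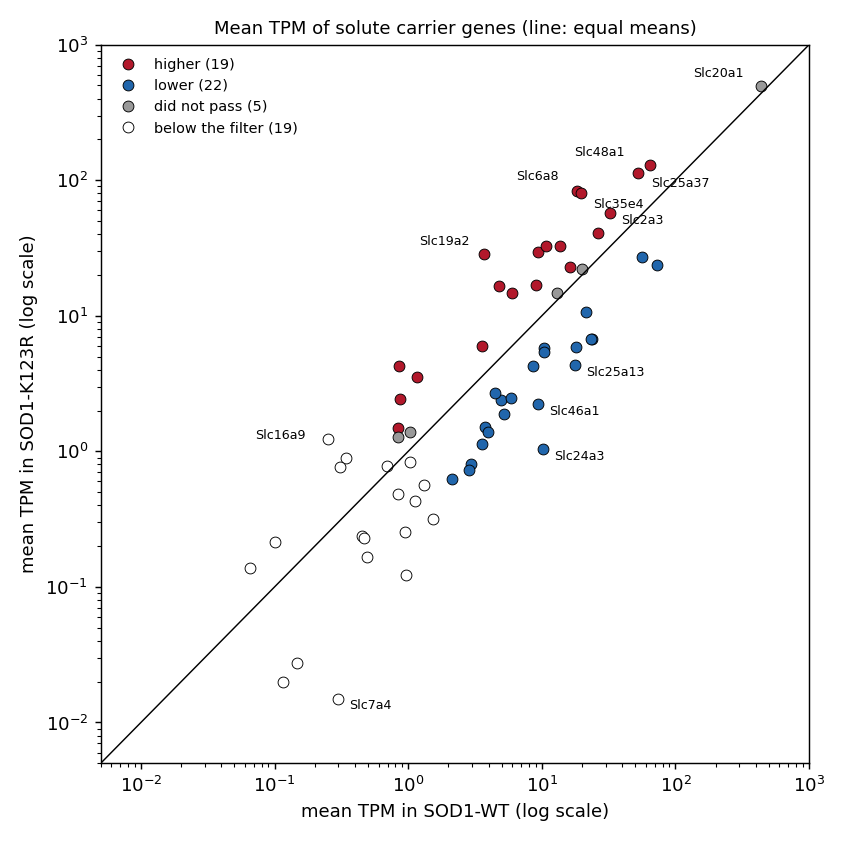
Mean TPM of 65 carriers in SOD1-K123R (vertical, log scale) against SOD1-WT (horizontal, log scale), each the mean of 4 libraries, with the line of equal means. Slc22a13l1 is not drawn because it is listed at 0 in every SOD1-WT library. Slc20a1 is the most abundant carrier and lies close to the line.

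Promoters of genes with large changes are shown because transcription of these genes starts there. RefSeq promoter windows of GRCr8, from 250 bases before to 50 after the annotated start, were matched by symbol for 47 of the 67 carriers, 12 of them among the 16 with the largest log2 fold changes, 8 each way, among those whose higher group averaged 5 TPM or more. Those of the rising Slc19a2 (chr13:79134868-79135167, plus strand), Slc6a8 (chrX:156535767-156536066, plus strand) and Slc12a7 (chr1:31354576-31354875, minus strand) and of the falling Slc24a3 (chr3:153005168-153005467, plus strand) read as follows, with capitals for matches to the motifs searched.
Slc19a2: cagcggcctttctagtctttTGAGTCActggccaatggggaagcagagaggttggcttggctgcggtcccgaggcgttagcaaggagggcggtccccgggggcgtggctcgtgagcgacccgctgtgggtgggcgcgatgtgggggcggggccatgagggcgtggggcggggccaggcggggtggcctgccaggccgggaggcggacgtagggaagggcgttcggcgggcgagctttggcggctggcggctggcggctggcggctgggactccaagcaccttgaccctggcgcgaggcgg
Slc6a8: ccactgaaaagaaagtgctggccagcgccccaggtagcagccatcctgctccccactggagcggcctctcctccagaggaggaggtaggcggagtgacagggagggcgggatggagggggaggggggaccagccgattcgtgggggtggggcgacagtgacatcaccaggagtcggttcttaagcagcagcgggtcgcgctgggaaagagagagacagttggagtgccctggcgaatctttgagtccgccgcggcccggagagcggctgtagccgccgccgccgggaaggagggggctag
Slc12a7: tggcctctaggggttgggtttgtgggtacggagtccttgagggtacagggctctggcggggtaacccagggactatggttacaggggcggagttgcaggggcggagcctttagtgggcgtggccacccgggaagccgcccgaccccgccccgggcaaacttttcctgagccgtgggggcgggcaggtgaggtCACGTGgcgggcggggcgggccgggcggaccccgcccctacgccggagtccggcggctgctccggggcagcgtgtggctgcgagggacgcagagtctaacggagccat
Slc24a3: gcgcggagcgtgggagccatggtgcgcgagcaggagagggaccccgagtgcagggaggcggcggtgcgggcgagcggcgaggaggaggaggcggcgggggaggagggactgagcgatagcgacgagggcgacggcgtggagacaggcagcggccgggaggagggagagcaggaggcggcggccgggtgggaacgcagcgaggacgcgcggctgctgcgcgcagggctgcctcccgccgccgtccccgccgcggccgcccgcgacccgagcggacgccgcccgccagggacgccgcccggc
The motifs, searched on both strands, were TGATGNAA, the core of the element bound by ATF4 with C/EBP partners, ACGTG, the core of the hypoxia response element, and TGACTCA, an AP-1 element. Slc19a2 held 1 AP-1 match, beginning 230 bases before the start on the reverse strand, and Slc12a7 held ACGTG on both strands of the same CACGTG, 58 bases before the start. The windows of Slc6a8 and Slc24a3 held none of the 3. Over the 34 tested carriers with a window, ACGTG was found in 38.2%, against 26.5% of the windows of the genes tested and 19.7% of all windows. TGACTCA was found in 2.94%, 4.13% and 4.62% of these sets. TGATGNAA was in none of the 34 windows, against 2.42% of the genes tested and 3.84% of all windows. A match is a run of letters and not a site of binding. For genes with several windows, only the one of lowest coordinate was searched, whatever the strand.

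Among carriers of amino acids and related solutes 1 of 5 tested rose and 4 fell. Slc6a8, which imports creatine for the cell's phosphocreatine store, read 92.6, 86.2, 71.4 and 83.7 TPM in SOD1-K123R and 19.2, 18.4, 17.7 and 18.3 TPM in SOD1-WT. Every SOD1-K123R library was above every SOD1-WT library by a wide margin (log2 fold change 2.12, SE 0.09, adjusted p = 1.11e-09). Slc7a6, a light chain that exchanges cationic for neutral amino acids, read 6.18, 5.97, 4.79 and 6.44 TPM in SOD1-K123R and 16.6, 18.6, 18.5 and 17.97 TPM in SOD1-WT. It fell, and its groups did not overlap (log2 fold change -1.47, SE 0.11, adjusted p = 7.26e-08).

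Slc38a6, of the family of sodium-coupled neutral amino acid transporters, read 2.2, 2.85, 0.93 and 1.53 TPM in SOD1-K123R and 3.36, 5.86, 5.21 and 6.28 TPM in SOD1-WT. Its SOD1-K123R libraries were uneven, with replicate 2 nearest to the SOD1-WT values, and the groups did not overlap (log2 fold change -1.12, SE 0.22, adjusted p = 0.000287). Slc38a9, the lysosomal arginine sensor that signals to mTORC1, fell to 2.39 ± 0.295 TPM in SOD1-K123R, against 4.91 ± 0.382 TPM in SOD1-WT (log2 fold change -0.80). Slc1a3, a glutamate and aspartate importer, fell to 0.81 ± 0.135 TPM in SOD1-K123R, against 2.98 ± 0.378 TPM in SOD1-WT (log2 fold change -1.13). The remaining 5 genes of the class, Slc1a2, Slc6a4, Slc6a17, Slc7a4 and Slc38a3, lay below the filter. In summed TPM the class stood at 95.96 ± 9.66 in SOD1-K123R and 51.9 ± 1.75 in SOD1-WT, a higher sum that Slc6a8 carried while the other tested genes fell.

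Carriers of inorganic ions rose in 2 of 7 cases tested, fell in 4 and did not pass in 1. Slc24a3, which exchanges sodium for calcium and potassium, read 1.18, 0.81, 1.24 and 0.95 TPM in SOD1-K123R and 11.4, 8.55, 9.03 and 12.01 TPM in SOD1-WT. All SOD1-K123R libraries lay near 1 TPM and all SOD1-WT libraries above 8 TPM (log2 fold change -2.45, SE 0.14, adjusted p = 7.66e-09). Slc8a1, the plasma membrane sodium/calcium exchanger NCX1, fell to 5.74 ± 1.01 TPM in SOD1-K123R, against 10.4 ± 1.92 TPM in SOD1-WT (log2 fold change -0.76, SE 0.15, adjusted p = 0.000317). Slc8b1, the sodium/calcium exchanger of mitochondria, rose to 22.7 ± 2.03 TPM in SOD1-K123R, against 16.1 ± 2.05 TPM in SOD1-WT (log2 fold change 0.47). That call ended when columns were scaled to a common sum (log2 fold change 0.17, limma adjusted p = 0.164), and it passed in the other alternatives.

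Slc4a2, the chloride/bicarbonate exchanger AE2 that lowers intracellular pH, read 23.8, 22.3, 23.4 and 25.9 TPM in SOD1-K123R and 78.9, 72.6, 61.2 and 76.6 TPM in SOD1-WT. Its 4 SOD1-K123R values fell in a narrow band below every SOD1-WT value (log2 fold change -1.56, SE 0.10, adjusted p = 1.71e-08). Slc4a4, a sodium bicarbonate cotransporter, read 3.32, 2.91, 2.33 and 2.18 TPM in SOD1-K123R and 2.53, 3.45, 6.49 and 5.25 TPM in SOD1-WT, and the groups overlapped. It passed narrowly as lower (log2 fold change -0.51, SE 0.21, adjusted p = 0.0353), and the call was lost under median-of-ratios scaling (-0.13, limma adjusted p = 0.431) and quantile normalization (-0.18, limma adjusted p = 0.350). It was also lost without SOD1-K123R replicate 3 (log2 fold change -0.46) or 4 (-0.44) and without SOD1-WT replicate 3 (-0.34) or 4 (-0.42). Slc12a7, the potassium-chloride cotransporter KCC4, read 29.7, 30.7, 25.8 and 31.4 TPM in SOD1-K123R and 8.93, 8.95, 9.31 and 10.5 TPM in SOD1-WT. It rose with no overlap of the groups (log2 fold change 1.54, SE 0.10, adjusted p = 2.16e-08).

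Slc20a1, a sodium-phosphate importer, was the most abundant carrier, at 523, 540.1, 487 and 434 TPM in SOD1-K123R and 379.5, 467, 475 and 433 TPM in SOD1-WT. The groups overlapped and the difference did not pass (log2 fold change 0.18, SE 0.10, adjusted p = 0.0967). Its sign depended on the scaling, with a log2 fold change of 0.66 after median-of-ratios scaling (limma adjusted p = 0.0001), -0.14 with a common column sum and -0.25 after quantile normalization. Without SOD1-K123R replicate 4, its lowest library in that group, the value was 0.24 and passed (limma adjusted p = 0.0333). Slc9a9, a sodium/proton exchanger of endosomes, was below the filter at 0.315 ± 0.145 TPM in SOD1-K123R and 1.54 ± 0.146 TPM in SOD1-WT, with no overlap.

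Metal carriers, here without Slc31a2 and Slc39a8, rose in 3 of 4 cases tested, and none fell. Over all genes tested, 44.6% were higher and 51.1% lower. Slc48a1, which moves heme out of lysosomes into the cytosol, read 127, 129, 125 and 135 TPM in SOD1-K123R and 69.4, 61.9, 63.7 and 62.6 TPM in SOD1-WT. Each group was tight, and the SOD1-K123R mean stood at 2.00 times the SOD1-WT mean (log2 fold change 0.99, SE 0.07, adjusted p = 7.5e-08). Slc41a1, a magnesium transporter of the plasma membrane, read 34.1, 32.9, 29.2 and 35.3 TPM in SOD1-K123R and 13.1, 13.2, 12.6 and 15.4 TPM in SOD1-WT, again with no overlap (log2 fold change 1.22, SE 0.10, adjusted p = 1.4e-07).

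Slc31a1, the high-affinity copper importer CTR1, which supplies the metal that SOD1 needs, read 40.8, 44.9, 40.2 and 38.1 TPM in SOD1-K123R and 23.1, 26.5, 29.7 and 26.6 TPM in SOD1-WT. The rise was smaller but the groups were separate (log2 fold change 0.62, SE 0.10, adjusted p = 4.65e-05), and its size was 0.31 with a common column sum and 1.08 after median-of-ratios scaling. Slc11a1, a divalent metal transporter of phagocyte lysosomes, did not pass, at 1.28 ± 0.414 TPM in SOD1-K123R and 0.842 ± 0.159 TPM in SOD1-WT (log2 fold change 0.29, SE 0.14, adjusted p = 0.0585). It was called higher under median-of-ratios scaling (0.53, limma adjusted p = 0.00214), quantile normalization (0.47) and no trend (limma adjusted p = 0.0498), and without SOD1-K123R replicate 2 (0.37) or SOD1-WT replicate 3 (0.35). Cd68, the 1 of 4 listed leukocyte markers in the table, read 22.8 to 29.8 TPM in SOD1-K123R and 5.44 to 7.94 TPM in SOD1-WT, and its part in the value of Slc11a1 was not tested. Slc40a1, the iron exporter ferroportin, was below the filter at 0.23 ± 0.0730 TPM in SOD1-K123R and 0.468 ± 0.0995 TPM in SOD1-WT. The metal carriers kept here together summed to 204 ± 6.11 TPM in SOD1-K123R and 106 ± 1.97 TPM in SOD1-WT.

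Mitochondrial carriers of family 25, which link the matrix with the cytosol, were divided, with 2 of 6 tested higher, 3 lower and 1 that did not pass. Slc25a37, the mitoferrin that brings iron into mitochondria for heme and iron-sulfur clusters, read 125, 125, 104 and 101 TPM in SOD1-K123R and 47.6, 53.8, 60.6 and 49.3 TPM in SOD1-WT. Its lowest SOD1-K123R library lay far above its highest SOD1-WT library (log2 fold change 1.09, SE 0.10, adjusted p = 5.71e-07). Slc25a30, a carrier named for kidney mitochondria, read 32.3, 34.8, 32.7 and 30.6 TPM in SOD1-K123R and 8.86, 10.2, 12.4 and 11.5 TPM in SOD1-WT, which also left the groups apart (log2 fold change 1.52, SE 0.11, adjusted p = 4.94e-08). Slc25a38, a glycine carrier that serves heme synthesis, did not pass, at 21.95 ± 2.45 TPM in SOD1-K123R and 19.9 ± 3.84 TPM in SOD1-WT (log2 fold change 0.14, or 0.60 and passing after median-of-ratios scaling and -0.16 with a common column sum).

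Slc25a13, which exports aspartate in exchange for glutamate in the malate-aspartate shuttle, read 3.84, 4.51, 4.23 and 4.64 TPM in SOD1-K123R and 17.8, 16.3, 17.3 and 19.3 TPM in SOD1-WT. It stood at a similar low level in all SOD1-K123R libraries (log2 fold change -1.82, SE 0.11, adjusted p = 9.03e-09). Slc25a3, which carries phosphate for ATP synthesis and also copper, read 27.5, 30.4, 24.5 and 26.1 TPM in SOD1-K123R and 49.7, 53.7, 66.1 and 56.6 TPM in SOD1-WT. It fell with no overlap (log2 fold change -1.03, SE 0.11, adjusted p = 1.02e-06), and median-of-ratios scaling put the change at -0.56. Slc25a26, the importer of S-adenosylmethionine, fell to 1.12 ± 0.156 TPM in SOD1-K123R, against 3.57 ± 0.402 TPM in SOD1-WT (log2 fold change -1.10).

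Sugar carriers, here without Slc2a1, rose in 3 of 4 cases tested, beside 44.6% of all genes tested. Slc2a3, the high-affinity glucose transporter GLUT3, read 57.6, 54.2, 58.9 and 58.3 TPM in SOD1-K123R and 30.8, 33.1, 31.99 and 33.1 TPM in SOD1-WT. The libraries of each group were close together, and the difference passed (log2 fold change 0.81, SE 0.08, adjusted p = 5.3e-07), with 0.50 under a common column sum and 1.28 after median-of-ratios scaling. Slc37a2, a sugar-phosphate exchanger of the endoplasmic reticulum, read 4.76, 5.6, 3.31 and 3.46 TPM in SOD1-K123R and 0.72, 0.97, 1 and 0.74 TPM in SOD1-WT and rose from a low level (log2 fold change 1.49, SE 0.15, adjusted p = 1.01e-06).

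The class also held both tested carriers of myo-inositol, an osmolyte that disc cells accumulate in hyperosmotic medium, and they moved apart. Slc5a3, the sodium-coupled importer whose gene is induced by hypertonicity, read 4.24, 4.53, 2.97 and 2.4 TPM in SOD1-K123R and 0.88, 1.14, 1.43 and 1.19 TPM in SOD1-WT. Slc2a13, the proton-coupled importer, read 0.55, 0.68, 0.65 and 0.6 TPM in SOD1-K123R and 1.92, 2.13, 2.47 and 1.95 TPM in SOD1-WT. Neither gene's groups overlapped (log2 fold changes 1.05, SE 0.16, and -0.94, SE 0.11; limma adjusted p = 4.86e-05 and 3.21e-06). Slc2a10, Slc2a12 and Slc45a3 were below the filter.

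Family 35 carries nucleotide sugars into the Golgi and endoplasmic reticulum, where they feed glycosylation, and includes members without a known substrate. Of 4 tested, 1 rose and 3 fell. Slc35e4 read 87.2, 79.7, 77.7 and 75.6 TPM in SOD1-K123R and 19.2, 21.2, 18.2 and 19.8 TPM in SOD1-WT. It had the third largest log2 fold change upward of the carriers tested (log2 fold change 1.97, SE 0.09, adjusted p = 9.82e-10). Slc35d2, a Golgi transporter of UDP-N-acetylglucosamine, read 1.6, 3.79, 1.7 and 2.76 TPM in SOD1-K123R and 5.3, 6.49, 6.56 and 5.24 TPM in SOD1-WT, with SOD1-K123R replicates 2 and 4 above replicates 1 and 3 (log2 fold change -1.03, SE 0.19, adjusted p = 0.000166). Slc35a5 fell to 4.27 ± 0.389 TPM in SOD1-K123R, against 8.55 ± 1.66 TPM in SOD1-WT (log2 fold change -0.84), and Slc35f6 to 10.7 ± 1.37 TPM in SOD1-K123R, against 21.4 ± 1.42 TPM in SOD1-WT (log2 fold change -0.94). Summed TPM of the class was 97.6 ± 6.31 in SOD1-K123R and 56.4 ± 1.37 in SOD1-WT, and Slc35e4 alone made up most of the first sum. Slc35e4, at means of 80.1 TPM in SOD1-K123R and 19.6 TPM in SOD1-WT, carried the higher sum while the other tested genes fell.

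**Figure D3:**
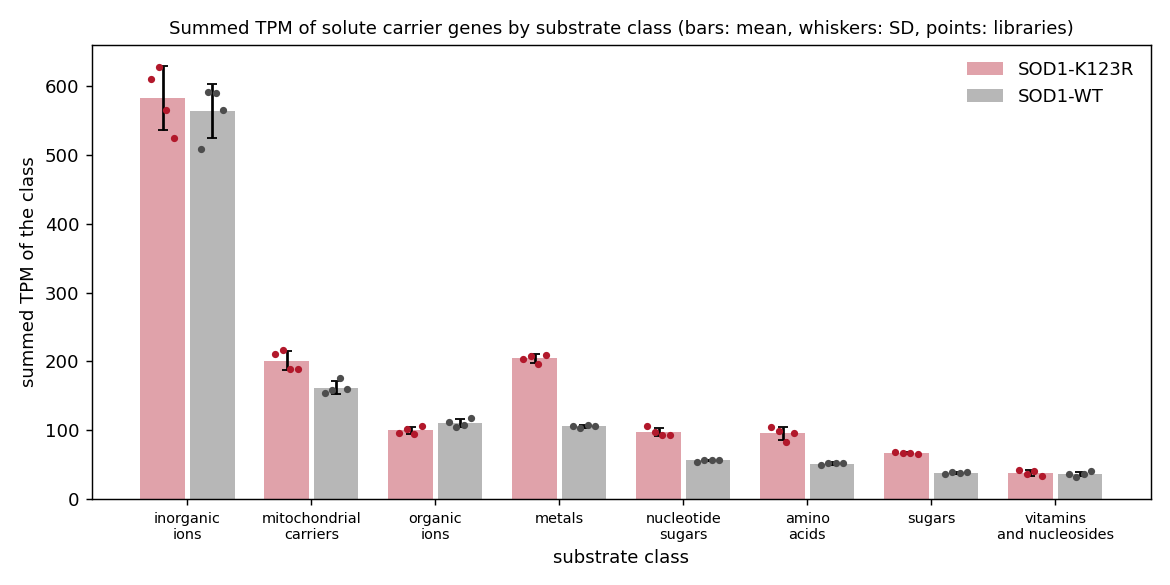
Summed TPM (vertical axis) of the carriers of each substrate class in SOD1-K123R (red) and SOD1-WT (grey); bars are means, whiskers SD and points the 4 libraries of a group. Every SOD1-K123R library was above every SOD1-WT library for metals, amino acids, nucleotide sugars, sugars and mitochondrial carriers, while the other 3 classes overlapped, inorganic ions, mostly Slc20a1, among them. Slc6a8 carried the higher sum of amino acids and Slc35e4 that of nucleotide sugars. All rows of the table also summed to more in SOD1-K123R (23.5% to 24.3% of the full TPM total, against 18.8% to 19.9% in SOD1-WT). The class sums were not scaled to these totals, so a separation here can be that of the whole table.

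Carriers of vitamins and nucleosides held the largest log2 fold change upward, with 1 of 3 tested higher and 2 lower. Slc19a2, a transporter of thiamine, the precursor of the cofactor of pyruvate dehydrogenase and transketolase, read 31.7, 28.4, 32.7 and 22.1 TPM in SOD1-K123R and 3.4, 4.34, 4.24 and 2.76 TPM in SOD1-WT. SOD1-K123R replicate 4 was the lowest of its group and still far above the highest SOD1-WT library (log2 fold change 2.66, SE 0.15, adjusted p = 7.76e-09). Slc46a1, the proton-coupled folate transporter, read 2.18, 2.06, 1.72 and 2.96 TPM in SOD1-K123R and 8.67, 9.75, 9.05 and 9.91 TPM in SOD1-WT and fell without overlap (log2 fold change -1.69, SE 0.13, adjusted p = 1.04e-07). Slc29a3, a nucleoside transporter of lysosomes and mitochondria, read 7.36, 6.17, 6.25 and 7.23 TPM in SOD1-K123R and 23.9, 18.4, 23.5 and 28.1 TPM in SOD1-WT. It too had every SOD1-K123R value below every SOD1-WT value (log2 fold change -1.65, SE 0.13, adjusted p = 1.04e-07). Slc44a3 and Slc52a3 were below the filter.

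The widest class, carriers of organic ions, was balanced, with 6 of 14 tested higher, 6 lower and 2 that did not pass. Among those that rose, Slc17a5, sialin, which exports sialic acid from lysosomes, read 16.4, 17.8, 13.9 and 18.6 TPM in SOD1-K123R and 4.55, 5.08, 4.88 and 4.64 TPM in SOD1-WT. Its groups were well apart (log2 fold change 1.60, SE 0.11, adjusted p = 4.39e-08). Slc27a3, a fatty acid transport protein with acyl-CoA synthetase activity, read 12.6, 15.4, 15.1 and 16.2 TPM in SOD1-K123R and 7.16, 5.58, 6.42 and 4.81 TPM in SOD1-WT, with a log2 fold change of 1.18 (SE 0.13, limma adjusted p = 1.98e-06). Slc47a1, the organic cation/proton antiporter MATE1, rose to 16.97 ± 1.11 TPM in SOD1-K123R, against 9.06 ± 1.21 TPM in SOD1-WT (log2 fold change 0.84).

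Slc13a3, an importer of dicarboxylates, rose to 2.45 ± 0.231 TPM in SOD1-K123R, against 0.87 ± 0.136 TPM in SOD1-WT (log2 fold change 0.88). Slc22a4, a transporter of the antioxidant ergothioneine, rose to 5.95 ± 1.12 TPM in SOD1-K123R, against 3.58 ± 0.682 TPM in SOD1-WT (log2 fold change 0.60). Slc17a3, an organic anion transporter that carries urate, had a log2 fold change of 0.43, a call that ended with a common column sum (0.27, limma adjusted p = 0.0822) and passed in the other alternatives in which the gene was tested.

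Of the genes of this class that fell, Slc10a3, of the bile acid family but without a known substrate, read 6.78, 6.7, 6.39 and 7.05 TPM in SOD1-K123R and 26.5, 22.6, 21.2 and 24.1 TPM in SOD1-WT, with no overlap (log2 fold change -1.67, SE 0.10, adjusted p = 1.23e-08). Slc16a4, a monocarboxylate family member, fell to 0.73 ± 0.251 TPM in SOD1-K123R, against 2.86 ± 0.741 TPM in SOD1-WT (log2 fold change -1.15).

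Slc10a7, whose loss causes a skeletal dysplasia in humans, read 3.56, 5.68, 4.17 and 8.11 TPM in SOD1-K123R and 10.5, 8.75, 10.8 and 11.4 TPM in SOD1-WT. Its SOD1-K123R libraries were spread, replicate 4 the highest, and the groups did not overlap (log2 fold change -0.88, SE 0.19, adjusted p = 0.000684). Slc14a1, a urea transporter, fell to 1.52 ± 0.178 TPM in SOD1-K123R, against 3.77 ± 0.699 TPM in SOD1-WT, and Slc15a1, the peptide importer PEPT1, to 1.40 ± 0.269 TPM in SOD1-K123R, against 3.93 ± 0.236 TPM in SOD1-WT (log2 fold changes -0.91 and -1.05). Slc15a3, a lysosomal peptide and histidine transporter, and Slc16a11, a monocarboxylate family member, did not pass (log2 fold changes 0.17 and 0.25). Median-of-ratios scaling called both higher (0.62 and 0.50), and so did quantile normalization (0.32 and 0.44), while a common column sum gave Slc15a3 a value of -0.12. Summed over the 19 genes, the class stood at 99.9 ± 5.37 TPM in SOD1-K123R and 111 ± 5.38 TPM in SOD1-WT.

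**Figure D4:**
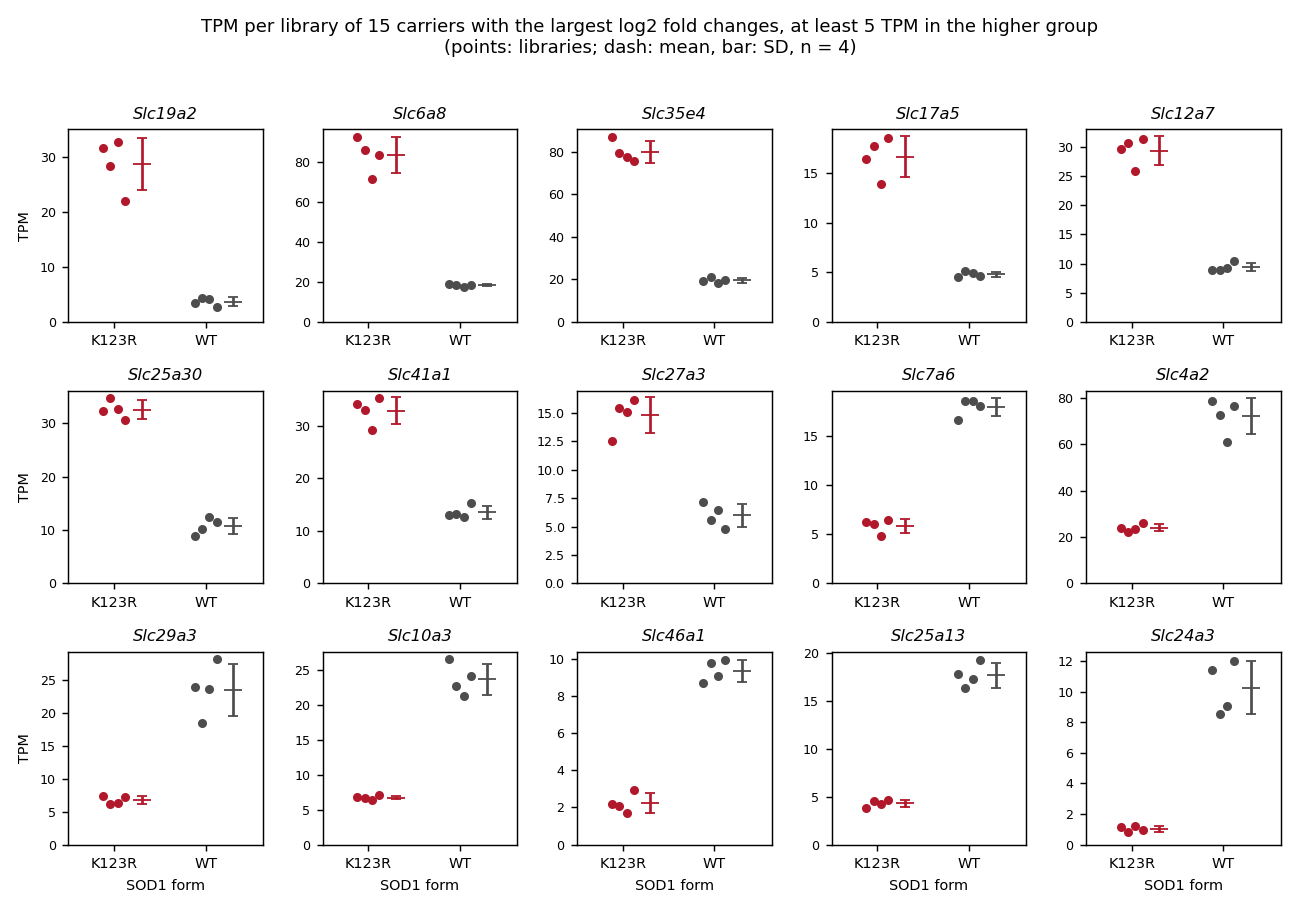
TPM (vertical axes, each from 0) in every library for 15 of the carriers with the largest log2 fold changes among those whose higher group averaged 5 TPM or more, 8 that rose and 7 that fell, with SOD1-K123R left of SOD1-WT; points are libraries, the dash is the mean and the bar the SD (n = 4). In each panel all libraries of one group lie above all of the other, as they do for 91.4% of all genes tested. The genes were picked by the size of this difference.

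Below the filter lay 20 carriers, with means over the 8 libraries of 0.0675 to 0.936 TPM. Groups did not overlap for 13 of the 20, 3 higher and 10 lower in SOD1-K123R, beside 62.9% of all rows below the filter. Slc16a9, of the monocarboxylate family, read 1.16, 1.12, 1.52 and 1.09 TPM in SOD1-K123R and 0.14, 0.1, 0.5 and 0.26 TPM in SOD1-WT, with no overlap. Slc22a13l1 read 0.39, 0.88, 0.09 and 0.14 TPM in SOD1-K123R and was listed at 0 in each SOD1-WT library. Slc7a4 was listed at 0 in 3 of the 4 SOD1-K123R libraries and read 0.29, 0.2, 0.36 and 0.35 TPM in SOD1-WT. With no filter, 16 of the 20 passed in limma, 4 higher and 12 lower, beside 76.6% of all rows below the filter. Values this low rest on few reads, and the depth of the libraries is unknown because TPM keep no counts.

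Over all 67 carriers the summed TPM was 1444, 1455, 1328 and 1319 in SOD1-K123R and 1056, 1141, 1168 and 1138 in SOD1-WT. Without Slc20a1 the sums were 921, 914, 841 and 886 in SOD1-K123R and 677, 674, 693 and 706 in SOD1-WT. Both sums were higher in every SOD1-K123R library than in any SOD1-WT library, although more carriers fell than rose. The median level of the 19 that rose was 28.7 TPM in SOD1-K123R and 9.41 TPM in SOD1-WT, and that of the 23 that fell was 2.69 TPM in SOD1-K123R and 9.35 TPM in SOD1-WT. The genes were sorted by this same difference, which by itself sets the SOD1-K123R medians apart. In SOD1-WT the medians were close, so those that rose were not the more abundant ones there. The rows of the table as a whole also summed to more TPM in SOD1-K123R, 23.5% to 24.3% of the full TPM total, against 18.8% to 19.9% in SOD1-WT. The higher sums of the carriers are thus shared with the table, and they were not scaled to its totals. They are therefore no result about carriers in particular.

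Genes that work with carriers were few in the table. None of 15 listed subunits of the sodium pump, which drives sodium-coupled carriers, and 1 of 22 listed V-ATPase genes were tested. This V-ATPase gene, Atp6v0b, a subunit of the proton pump, rose (log2 fold change 0.57). Of 21 listed chaperones and regulators of carriers 6 were tested, of which 4 rose and 2 fell. Among all genes tested, 44.6% were higher and 51.1% lower. Txnip, an arrestin-like protein that takes glucose transporters off the surface, read 119.9, 85.7, 118 and 79.9 TPM in SOD1-K123R and 11.03, 9.35, 12.6 and 8.59 TPM in SOD1-WT and rose (log2 fold change 3.15, SE 0.15, adjusted p = 2.33e-09). Its relative Arrdc4 (0.83), the scaffold Nherf2 (1.11) and Wnk4 (1.26), a kinase that controls cation-chloride cotransport, also rose. Nptn, a chaperone of monocarboxylate transporters, fell to 116 ± 12.6 TPM in SOD1-K123R, against 250.4 ± 26.3 TPM in SOD1-WT, and the scaffold Pdzk1 fell as well (-0.80).

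In the list of amino acid starvation and sensing 6 of 18 genes were matched by exact symbol and tested. All 6 rose, beside 44.6% of all genes tested. The list was chosen with earlier results of these data known, so the count is no independent support. The listed Rragb, spelled RragB in the table, was tested too but was missed by the match, and its direction was not looked at. Rragd, a Rag GTPase that recruits mTORC1 to lysosomes, the pathway of Slc38a9, read 8.49, 8.09, 7.32 and 9.05 TPM in SOD1-K123R and 0.17, 0.17, 0.08 and 0.15 TPM in SOD1-WT (log2 fold change 3.01, SE 0.11, adjusted p = 3.41e-10). Ddit4, an inhibitor of mTORC1, read 116, 125, 120.1 and 124 TPM in SOD1-K123R and 15.9, 21.01, 19 and 17.3 TPM in SOD1-WT (log2 fold change 2.67, SE 0.09, adjusted p = 2.5e-10). Atf4, the transcription factor of amino acid starvation, rose to 684 ± 27.2 TPM in SOD1-K123R, against 419.8 ± 10.2 TPM in SOD1-WT (log2 fold change 0.70), and the leucine sensor Sesn2 (1.31), the arginine sensor Castor1 (0.79) and Trib3 (1.29) rose too.

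Carbonic anhydrases, which make the bicarbonate that family 4 carries, gave 2 tested genes that moved apart. The membrane-bound Car12 rose to 3.27 ± 0.707 TPM in SOD1-K123R, against 0.778 ± 0.226 TPM in SOD1-WT, and the cytosolic Car3 fell to 0.892 ± 0.297 TPM in SOD1-K123R, against 5.28 ± 1.48 TPM in SOD1-WT. Among ABC transporters, the ATP-driven pumps, 4 of 5 tested rose and Abcb10, of the mitochondrial inner membrane, fell (log2 fold change -1.02). The shares over all genes tested were 44.6% higher and 51.1% lower. Abcg2 and Abca9, below the filter, were lower in SOD1-K123R without overlap (means 0.17 and 0.22 TPM, against 0.69 and 1.2 TPM in SOD1-WT). The prostaglandin transporter Slco2a1, the 1 organic anion transporting polypeptide in the table, fell to 0.77 ± 0.224 TPM in SOD1-K123R, against 4.29 ± 1.64 TPM in SOD1-WT.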

How the data were processed

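RNA-seq was made from total RNA isolated with TRIzol, reverse transcribed with SuperScript II and sequenced in pairs on an Illumina NovaSeq, per the labels' protocols. The authors deposited 1 table of TPM per gene, with Ensembl identifiers, symbols and GO terms, per the file headers. RSEM is in the name of the table, and DESeq2 is named with no role, per the submitters' processing notes. The aligner and the genome build were not given in the sources used here. Depth is unknown, so no counting interval was set.

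Groups came from the titles. Library identifiers form 1 run per group, so handling and group cannot be told apart. The 2890 genes averaging 1 TPM or more were fitted with limma 3.58.1 (log2(TPM + 1), mean-variance trend, two-sided) in R 4.3.3, tested on simulated data, with figures from matplotlib 3.10.9. The carriers, lists and tests were chosen with earlier results of these data known. Named were up to 5 passing carriers per class with the smallest adjusted p and at least 5 TPM in the higher group, the 8 largest log2 fold changes each way under the same 5 TPM limit, the 10 most abundant carriers and those that did not pass. Every other tested carrier but 1, which is not reported here, was also named, after its values were seen. Promoters are RefSeq's, of GRCr8; proteins were not used here. Carriers have paralogs, and reads shared between copies could shift TPM. Alternatives were other pseudocounts, filters and scalings, a fit with no trend, a replicate block and leaving out each library.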

Additional observations from a re-analysis of the deposited data

Results flagged for a closer look

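In 3 of 133 groups of 4 libraries, looked at for each carrier with any spread, 1 library stood far from the others, where chance alone gives about 1 group in 20. For Slc16a9 it was SOD1-K123R replicate 3, at 1.52 TPM beside 1.09 to 1.16 TPM for its 3 neighbours. For Slc7a4 the same library held 0.06 TPM, and its 3 neighbours were listed at 0. For Slc47a2, the relative of Slc47a1, the library was SOD1-WT replicate 2, whose 0.98 TPM compared with 0.59 to 0.6 TPM for its 3 neighbours. All 3 genes lay below the filter of 1 TPM, and no carrier that was tested had such a library in either group.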

How the results depend on the processing

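Of 47 tested carriers, 39 kept their direction and their side of the threshold under every alternative in which they could be tested. Over all 47, 712 of 734 comparisons were counted as unchanged. That count includes changes of sign where neither fit passed, as for Slc20a1, Slc25a38 and Slc15a3 with a common column sum. Of the other comparisons, 12 gained a call, 9 lost one and 1 reversed with a call. Slc20a1 reversed after quantile normalization, where it passed as lower (log2 fold change -0.25, limma adjusted p = 0.0203, against 1e-04 to 0.0333 in the alternatives that called it higher); the cause was not tested. At a mean of at least 5 TPM fewer genes were tested, and 27 of 30 carriers passed, 13 of them as lower, as did 897 genes as lower over the table. With no filter 35 carriers were lower, since 20 more were tested. Leaving out each library in turn gave 41 to 44 passing carriers and 2715 to 2769 passing genes. Replicate numbers did not pair the samples (correlations of deviations -0.35, 0.02, -0.20 and 0.05), and with a replicate block 41 carriers and 2743 genes passed; the call lost was that of Slc4a4 (limma adjusted p = 0.0703, and 0.0859 to 0.431 in the other alternatives that ended it). A pseudocount of 0.1 enlarged the change of 5 carriers of low TPM by over 1.5 times and ended no call. TPM without counts limit what can be said of carriers near 1 TPM.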

Other observations

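Sorted by the location that the deposited GO terms give, a grouping chosen after values were seen, carriers of each compartment were divided. Over all genes tested, 44.6% were higher and 51.1% lower. Of 6 lysosomal carriers tested 2 rose (Slc48a1 and Slc17a3), 2 fell (Slc29a3 and Slc38a9) and 2 did not pass; Slc17a5, which exports sialic acid from lysosomes, carries no such term in the table. Golgi terms marked 5 tested carriers, of which Slc35e4 rose and 4 fell (Slc10a7, Slc29a3, Slc35a5 and Slc35d2). Mitochondrial terms marked 8 tested carriers, with 5 higher, 2 lower and 1 that did not pass. The mitochondrial carrier Slc25a3, which fell, carries no such term, while Slc22a4 and Slc27a3, both higher, carry it. Of 22 tested carriers with a plasma membrane term 10 rose and 10 fell. Symporter terms marked 12 tested carriers (5 higher, 5 lower) and antiporter terms 10 (5 higher, 4 lower).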
